A study of Homo sapiens with 4 samples.

Results

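The genes described here are AGR2 and 8 transcription factors that mark gastric and other epithelial lineages, namely FOXA1, FOXA2, GATA6, SOX9, SOX2, ELF3, EHF and GRHL2. They were taken by gene symbol from the 53777 rows with an Ensembl identifier, and each of the 9 genes had 1 such row. RNA sequencing was done on the human line NUGC3, which derives from a gastric cancer, transfected either with a scramble control (2 libraries) or with short hairpins against NIPBL (2 libraries). NIPBL loads cohesin, the ring complex that folds chromosomes into loops, and the series concerns MYC, thymidylate synthase and antifolate drugs. The knockdown libraries carried different hairpins, hairpin 1 and hairpin 7, with 1 library each. All 4 labels hold the letters DOX, which they do not explain, and scramble 2 carries the label of scramble 1 plus a suffix, so it may be a repeat. The labels do not say whether replicate libraries are separate cultures. The p-values therefore weigh the group difference only against a spread estimated from these libraries, which may be technical. In the knockdown group that spread, also where an SD is given, is the difference between hairpin 1 and hairpin 7.

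Values are FPKM as made by the authors, a read abundance per length of transcript and per size of library. They summed to between 682076 and 749446 per library. Sequencing depth is unknown, so no counting error is given. NIPBL checks the labels and measured 23.92 and 23.11 FPKM under scramble, 7.27 FPKM under hairpin 1 and 9.17 FPKM under hairpin 7. That left 30.9% and 39.0% of the scramble mean. Of 16 markers of fibroblasts, endothelium, immune cells, muscle and neuroendocrine cells, 15 stayed under 1 FPKM in every library and 4 of them were listed at 0 throughout. The exception was COL1A1, at 5.75 to 6.57 FPKM in scramble and 7.34 to 9.39 FPKM in knockdown libraries.

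These factors act in steps of epithelial identity. FOXA1 and FOXA2 are forkhead pioneer factors that open chromatin in endoderm, and GATA6 is a zinc finger factor that works beside them in foregut and intestine. SOX9 and SOX2 carry HMG boxes, SOX9 being known from epithelial progenitors and SOX2 from the foregut and stomach. ELF3 and EHF are epithelium-specific ETS factors, and GRHL2 is a grainyhead factor that keeps adhesion genes such as CDH1 on. AGR2 is not a transcription factor. It is a protein disulfide isomerase of the endoplasmic reticulum in mucus-secreting epithelium, known to be needed for mucin production, and FOXA1 and FOXA2 are known to act on its promoter.

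AGR2 and FOXA1 rose after NIPBL knockdown, and neither FOXA2 nor any other of the factors passed the test. Of the 9 genes, 8 had a mean of at least 1 FPKM and were tested. Of these 8, 2 were higher and 0 were lower at an adjusted p under 0.05 (limma; 6 higher and 1 lower at an unadjusted p under 0.05). Over all 12834 genes tested, 2.56% passed in either direction, 1.45% as higher and 1.11% as lower. The unadjusted threshold was met by 26.4% of all genes, 13.6% as higher and 12.8% as lower. Both knockdown libraries lay above both scramble libraries for 6 of the 8 and below for 1, against 29.5% and 30.8% of all genes and 60.3% in either direction. The log2 change was above 0 for 6 of the 8 and for 48.3% of all genes. The median log2 change of the 8 genes was 0.53, beside -0.01 over all genes tested. Since these genes were chosen with earlier results of the same data known, the counts are a description.

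**Figure D1:**
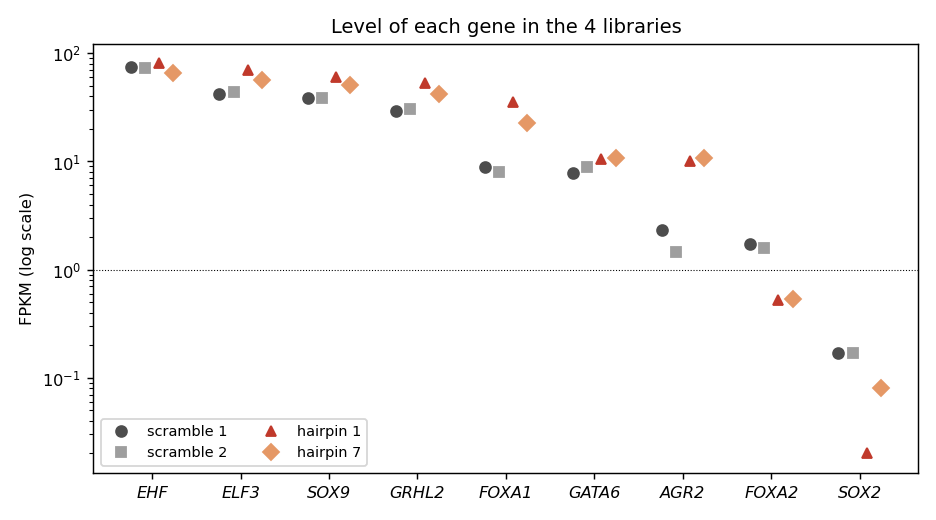
FPKM on a log scale for each of the 9 genes in the 4 libraries, ordered by the scramble mean, with a dotted line at 1 FPKM. The 2 hairpin points stand well above the 2 scramble points for FOXA1 and AGR2 and below them for FOXA2 and SOX2, while those of EHF lie on either side.

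AGR2 measured 2.31 and 1.47 FPKM under scramble, 10.14 FPKM under hairpin 1 and 10.69 FPKM under hairpin 7. The hairpins gave nearly the same level, and the groups did not overlap. The mean went from 1.89 ± 0.594 to 10.4 ± 0.389 FPKM (SD, n = 2 each), a 5.51-fold rise. On the log2(FPKM + 1) scale the knockdown mean less the scramble mean was 2.00 ± 0.19 (SE; adjusted p = 0.0218, limma). This change was the 42nd highest of the 12834. AGR2 was a low transcript in the control cells, at percentile 6.73 of the 11514 protein-coding genes tested by scramble mean. In bulk RNA, more cells that express a gene and more RNA per cell cannot be told apart, which holds for each gene here.

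FOXA1 measured 8.83 and 7.93 FPKM under scramble, 35.57 FPKM under hairpin 1 and 22.45 FPKM under hairpin 7. Every knockdown value lay above every scramble value, and the hairpins differed more from each other than the scramble libraries did. The rise was 3.46-fold by the means, 8.38 ± 0.636 and 29.01 ± 9.28 FPKM (SD, n = 2 each), with a log2 change of 1.64 ± 0.23 (SE; adjusted p = 0.0444, limma). Hairpin 1 alone stood 1.96 and hairpin 7 alone 1.32 above the scramble mean on that scale.

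The calls of AGR2 and FOXA1 rest on having both scramble libraries. Without scramble 1 the adjusted p was 0.134 for AGR2 and 0.282 for FOXA1, and without scramble 2 it was 0.203 and 0.357 (limma). With the scramble libraries averaged into 1, the values were 0.177 and 0.319. FOXA1 also missed the threshold in the fit without a mean trend (adjusted p = 0.0622), and both missed it with no filter on low values (0.118 and 0.143). Every one of these fits kept the direction of both genes. The loss was not particular to AGR2 and FOXA1. NIPBL itself missed the threshold with either scramble library left out, with them averaged and with no filter, but passed without a mean trend.

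Stretches of the promoters of AGR2, FOXA1 and EHF are printed to show the sequence before the start of the 2 genes that rose and of a factor whose hairpin values fell on either side of scramble. They are stretches of 150 bases that begin 250 bases before the RefSeq start, in GRCh38.p14, 5′ to 3′ on the gene's strand, and they overlap no GENCODE 29 exon. Capitals mark matches, on either strand, to letters of 5 factor families.
AGR2, chr7:16805100-16805249, minus strand: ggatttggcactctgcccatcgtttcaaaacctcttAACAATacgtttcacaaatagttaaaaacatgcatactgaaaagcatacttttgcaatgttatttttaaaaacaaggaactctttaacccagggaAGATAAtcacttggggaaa
FOXA1, chr14:37595350-37595499, minus strand: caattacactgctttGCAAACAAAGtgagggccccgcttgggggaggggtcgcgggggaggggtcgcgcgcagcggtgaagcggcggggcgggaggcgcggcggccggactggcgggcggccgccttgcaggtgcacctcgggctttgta
EHF (the start farther upstream of 2), chr11:34624007-34624156, plus strand: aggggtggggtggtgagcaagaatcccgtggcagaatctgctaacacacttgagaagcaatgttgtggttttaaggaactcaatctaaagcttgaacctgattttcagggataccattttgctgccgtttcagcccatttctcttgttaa

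For FOXA factors the letters searched were TGTTTAC and its variants TGTTTGC, then TATTTAC, as well as TATTTGC. For GATA factors they were AGATAA or else TGATAA, for SOX factors AACAAT or else AACAAAG, for ETS factors AGGAAG and for GRHL factors AACNNGTT. The AGR2 stretch held 1 GATA match and 1 SOX match. The FOXA1 stretch held 1 FOXA match and 1 SOX match, which overlap in the run of capitals. The EHF stretch held 0. That of the other EHF start, which overlaps an exon and is not printed, held 1 FOXA and 1 GATA match, and those of GATA6, SOX2 and ELF3 held 0. Over 35116 RefSeq promoter stretches of the same length, 6.86% held a FOXA match, 9.91% a GATA match, 8.21% a SOX match, 17.6% an ETS match and 1.93% a GRHL match. Matches are letters in a window and say nothing of binding. Of the 9 genes, 6 matched an entry in the RefSeq table.

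FOXA2, the relative of FOXA1, lay on the other side. It measured 1.73 and 1.58 FPKM under scramble, 0.52 FPKM under hairpin 1 and 0.53 FPKM under hairpin 7. The groups did not overlap and the hairpins gave the same level, 3.15-fold under scramble by the means of 1.66 ± 0.106 and 0.525 ± 0.00707 FPKM (SD, n = 2 each). The log2 change was -0.80 ± 0.20 (SE; adjusted p = 0.102, limma), so FOXA2 did not pass. On the log2(FPKM + 0.1) scale, which compresses low values less, the change was -1.49 (adjusted p = 0.112). FOXA2 met the filter through its scramble values alone, with an overall mean of 1.09 FPKM.

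Because FPKM is per length, levels of the forkhead genes can be set side by side. FOXA1 exceeded FOXA2 5.10-fold and 5.02-fold in the scramble libraries, 68.4-fold under hairpin 1 and 42.4-fold under hairpin 7. The hairpin ratios divide by FOXA2 values of 0.52 and 0.53 FPKM, which are low and have no counting error, so their size is uncertain. Both genes contributed to the wider gap, FOXA1 by its higher and FOXA2 by its lower level. Their sum was 10.56 and 9.51 FPKM in scramble, 36.09 FPKM under hairpin 1 and 22.98 FPKM under hairpin 7. The difference between the forkhead genes was not tested.

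GATA6 measured 7.89 and 8.86 FPKM under scramble, 10.5 FPKM under hairpin 1 and 10.73 FPKM under hairpin 7. Both hairpin values lay above both scramble values, and they were closer to each other than the scramble values were. Its log2 change was 0.31 ± 0.12 (SE; adjusted p = 0.178, limma), and it did not pass. GATA6 and FOXA1 overlapped in level in the scramble libraries. In the knockdown libraries FOXA1 was 3.39 times GATA6 with hairpin 1 and 2.09 times with hairpin 7.

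SOX9 measured 38.43 and 38.34 FPKM under scramble, 60.38 FPKM under hairpin 1 and 50.42 FPKM under hairpin 7. The scramble values were almost equal, and both hairpin values stood above them. The log2 change was 0.51 ± 0.12 (SE; adjusted p = 0.0908, limma), which did not pass. SOX2 was close to 0 everywhere, at 0.17 FPKM in each scramble library, 0.02 FPKM under hairpin 1 and 0.08 FPKM under hairpin 7. It was not tested. Among the SOX pair, then, SOX9 made up nearly all transcripts in every library.

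ELF3 measured 42.33 and 43.64 FPKM under scramble, 69.62 FPKM under hairpin 1 and 56.72 FPKM under hairpin 7. Both hairpins were above both scramble libraries, hairpin 1 more so. ELF3 had a log2 change of 0.54 ± 0.13 (SE; adjusted p = 0.0919, limma) and did not pass. An antisense transcript at the same locus (ENSG00000234678, ELF3-AS1 in GENCODE 29) was at 0.65 and 0.66 FPKM in scramble and at 1.59 and 1.13 FPKM under hairpins 1 and 7. The strand setting of the libraries is not given in the sources used here, so reads of the antisense pair cannot be told apart.

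EHF, the other ETS factor, had the highest level of the 9 genes in every library. It measured 74.52 and 73.02 FPKM under scramble, 80.53 FPKM under hairpin 1 and 65.64 FPKM under hairpin 7. The hairpins thus fell on either side of scramble, and their mean was 99.1% of the scramble mean. The log2 change was -0.02 ± 0.13 (SE; adjusted p = 0.934, limma). EHF exceeded ELF3 1.76-fold and 1.67-fold in the scramble libraries and 1.16-fold with either hairpin. Its sign under other scalings is not fixed, being 0.0022 after quantile normalization.

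GRHL2 (chromosome 8) measured 29.58 and 30.39 FPKM under scramble, 52.61 FPKM under hairpin 1 and 41.72 FPKM under hairpin 7. Again both hairpins were above both scramble libraries, with hairpin 1 the higher. Its mean was 157% of scramble and its log2 change was 0.63 ± 0.14 (SE; adjusted p = 0.0829, limma), and it did not pass. The adjusted p of GRHL2 lay between 0.0692 and 0.656 over the alternatives that kept both hairpins.

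**Figure D2:**
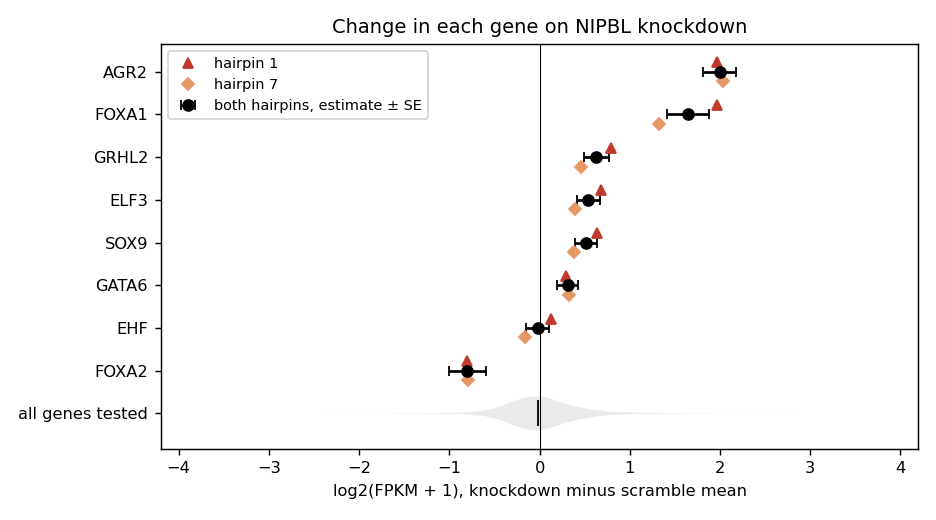
Log2 change of the 8 tested genes on the log2(FPKM + 1) scale, as the estimate over both hairpins with its SE (black) and for each hairpin against the scramble mean (triangles and diamonds). The grey shape is the distribution over the 12834 genes tested, with its median at -0.01, and AGR2 at 2.00 and FOXA1 at 1.64 lie in its upper tail.

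The hairpins did not give the same sizes for all genes. Against the scramble mean, hairpin 1 stood higher than hairpin 7 for FOXA1, SOX9, ELF3, EHF and GRHL2, by 0.26 (SOX9) to 0.64 (FOXA1) on the log2 scale. Hairpin 1 was also the higher for 53.9% of all genes tested. For AGR2, GATA6 and FOXA2 the hairpins differed by 0.07 or less. Over all genes tested, the SD of the difference between hairpins was 0.45 and that between scramble libraries 0.28. NIPBL itself was lower with hairpin 1. Each hairpin is 1 library, so whether the difference would repeat was not tested.

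Set against the 2 scramble libraries alone, either hairpin gave the same 6 calls. They were AGR2, FOXA1, FOXA2, SOX9, ELF3 and GRHL2, with adjusted p between 0.0111 (FOXA1) and 0.0369 (FOXA2) for hairpin 7 and between 0.0134 (FOXA1) and 0.0478 (FOXA2) for hairpin 1 (limma). FOXA2 is among them although it met the filter through its scramble values alone. A fit of a single hairpin takes the spread of the lone hairpin library to be that of the scramble pair. Both fits share that pair, so neither is independent of the other. They also called 35.3% of all genes for hairpin 7 and 22.7% for hairpin 1, so the 6 calls of 8 are to be read against that larger share.

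The order of the levels held in part. From the highest, it was EHF, ELF3, SOX9, GRHL2 in each of the 4 libraries, and SOX2 was the lowest in each. In the scramble libraries FOXA1 and GATA6 changed places between the libraries, as did AGR2 and FOXA2, so neither pair differed beyond its spread. With either hairpin the next in order were FOXA1, GATA6, AGR2 and FOXA2. GATA6 and AGR2 were then within 0.4 FPKM of each other.

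**Figure D3:**
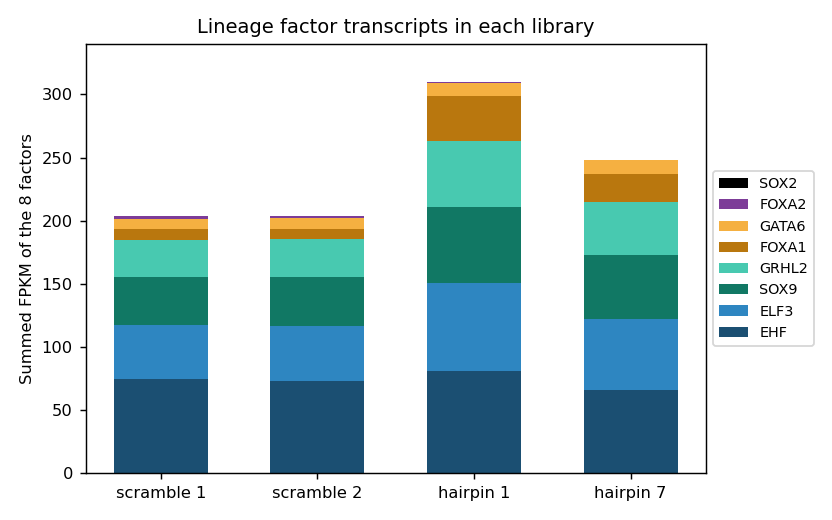
FPKM of the 8 transcription factors stacked for each library, without AGR2. The total was 203 and 204 FPKM in the scramble libraries, 310 FPKM under hairpin 1 and 248 FPKM under hairpin 7, with EHF the largest share in each bar and FOXA2 and SOX2 barely visible.

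Together the 8 factors summed to 203.48 and 203.93 FPKM in the scramble libraries, 309.75 FPKM under hairpin 1 and 248.29 FPKM under hairpin 7. Most of the added FPKM belonged to FOXA1, SOX9, ELF3 and GRHL2. By level, EHF was at percentile 88.9 of the protein-coding genes tested, ELF3 at 79.8, SOX9 at 77.2 and GRHL2 at 71.4. FOXA1 and GATA6 were both at 33.1 and FOXA2 was at 5.39.

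**Figure D4:**
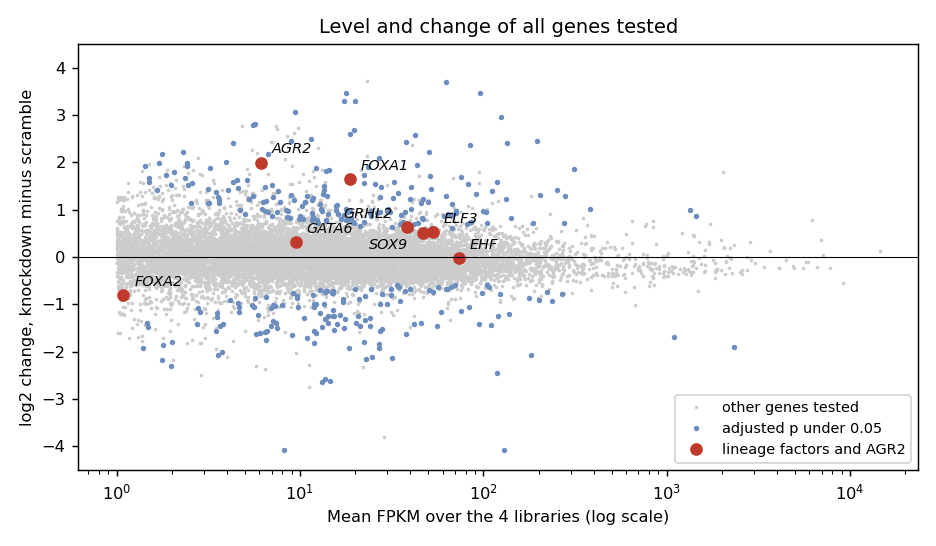
Mean FPKM over the 4 libraries (log scale) against the log2 change of each gene tested, with genes at an adjusted p under 0.05 in blue and the 8 genes in red. AGR2 and FOXA1 lie toward the upper edge for their level, FOXA2 below the zero line beside the filter of 1 FPKM, and EHF on the zero line.

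Among 27 further lineage factors, 14 were tested, of which 1 rose and 1 fell (limma, adjusted p under 0.05; 2 higher and 2 lower at an unadjusted p under 0.05). Of all genes tested, 2.56% passed and 26.4% met the unadjusted threshold. KLF4, a zinc finger factor of differentiating epithelium, rose from 9.88 and 9.42 FPKM to 43.41 FPKM under hairpin 1 and 45.73 FPKM under hairpin 7. Its log2 change was 2.10 ± 0.10 (SE; adjusted p = 0.00718, limma). TP63, the master factor of basal and squamous epithelium, fell from 18.47 and 18.04 FPKM to 6.74 and 8.23 FPKM, by 1.19 ± 0.13 on the log2 scale (SE; adjusted p = 0.0283, limma). KLF5 had a log2 change of 0.61 and XBP1, a factor of secretory cells, of 0.14, and neither passed. Over the 14 factors the median was 0.07. The other 13 were not tested, and none of them exceeded 1.16 FPKM in any library.

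Relatives of the 9 genes differed in level from them. FOXA3 did not exceed 0.05 FPKM, GRHL3 did not exceed 0.03 FPKM and ELF5 did not exceed 0.02 FPKM. GATA4, at 5.73 and 5.28 FPKM in scramble and 6.74 and 5.19 FPKM under hairpins 1 and 7, overlapped between groups. So did the forkhead gene FOXQ1, with a log2 change of -0.17. GATA5 and SOX4 were above both scramble libraries with either hairpin, with log2 changes of 0.33 and 0.48 that did not pass. GRHL1 was at 12.64 and 11.65 FPKM in scramble and 8.37 and 10.20 FPKM with the hairpins, with a log2 change of -0.36 (limma, adjusted p = 0.184). It was thus lower where GRHL2 was higher, and neither passed. These relatives were singled out after their values were seen.

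The endoplasmic reticulum folding genes around AGR2 showed no call. Of 17 disulfide isomerases and chaperones, 15 were tested and 0 passed in either direction (limma; 0 higher and 1 lower at an unadjusted p under 0.05), with a median of -0.10. The shares over all genes tested were 2.56% passing and 26.4% at the unadjusted threshold. AGR3, the closest relative of AGR2, was listed at 0 in all 4 libraries. The chaperone gene DNAJB11 had a log2 change of -0.30, the isomerase gene P4HB of 0.30, TXNDC12 of -0.26 and the oxidase gene ERO1A of 0.61. Their adjusted p ran from 0.175 to 0.236 (limma). The most abundant, HSP90B1, PDIA6 and PDIA3, had log2 changes of -0.25, -0.15 and -0.03, the last turning to 0.025 after quantile normalization. Single hairpins moved several of these values: hairpin 1 and hairpin 7 alone gave 0.21 and 1.01 for ERO1A and -0.01 and -0.30 for PDIA6. For P4HB hairpin 1 and hairpin 7 alone gave 0.18 and 0.42, and for HSP90B1 -0.15 and -0.34.

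Of 20 gastric secretory genes, only 4 were tested (4 higher and 0 lower at an unadjusted p under 0.05), and those not tested stayed at or under 2.48 FPKM. Over all genes tested, 13.6% were higher and 12.8% lower at that unadjusted threshold, and 2.56% passed. CTSE, the gastric protease cathepsin E, rose from 3.83 and 5.0 FPKM to 10.97 FPKM under hairpin 1 and 11.27 FPKM under hairpin 7, with a log2 change of 1.17 ± 0.15 (SE; adjusted p = 0.0404, limma). MUC1, a membrane mucin, had a log2 change of 1.20 and ANXA10, an annexin of gastric epithelium, of 1.41, and neither passed (adjusted p = 0.187 and 0.113, limma). MUC1 was at 1.70 and 0.95 FPKM in scramble, 2.40 FPKM under hairpin 1 and 7.18 FPKM under hairpin 7. Its log2 change was 0.57 by hairpin 1 alone and 1.83 by hairpin 7 alone. ANXA10 was at 0.62 and 0.42 FPKM in scramble, 4.77 FPKM under hairpin 1 and 1.80 FPKM under hairpin 7. Its log2 change was 1.93 by hairpin 1 alone and 0.88 by hairpin 7 alone. All 4 had a positive log2 change, with a median of 1.20. ANXA10 and PSCA, the latter named after its values were seen and at 0.14 and 0.18 FPKM in scramble and 0.81 and 2.94 FPKM under hairpins 1 and 7, met the filter only through their knockdown values.

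Beside the 4 tested genes, the other 16 of this list had a mean under 1 FPKM, and 5 of them were listed at 0 in all libraries. The trefoil gene TFF1, named after its values were seen, was listed at 0 and was at 0.17 FPKM in the scramble libraries, 2.48 FPKM under hairpin 1 and 1.02 FPKM under hairpin 7. GKN1, MUC6 and ATP4B were named in the same way. GKN1, listed at 0 in scramble, was at 0.23 and 0.08 FPKM under hairpins 1 and 7. MUC6 lay the other way, at 0.17 and 0.49 FPKM in scramble and 0.11 and 0.08 FPKM under hairpins 1 and 7. So did ATP4B, at 0.03 and 0.04 FPKM in scramble and listed at 0 with both hairpins. Of markers of mature stomach, also named after their values were seen, MUC5AC did not exceed 0.03 FPKM and CLDN18 did not exceed 0.05 FPKM. PGC and LIPF were among those at 0. Of 17 intestinal genes 0 reached the filter, with a highest value of 1.21 FPKM.

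Epithelial junction and splicing genes, among them genes that grainyhead and ETS factors are known to act on, were all expressed at the filter or above. All 25 were tested, and 0 passed (limma; 6 higher and 2 lower at an unadjusted p under 0.05), with a median log2 change of 0.08. Among all genes tested, 2.56% passed, and 13.6% were higher and 12.8% lower at that unadjusted threshold. KRT19, a keratin of simple epithelium, had a log2 change of 0.63 (limma, adjusted p = 0.0616). SPINT1, a protease inhibitor, had 0.40, CLDN4, a claudin of tight junctions, 0.56 and the receptor gene ERBB3 -0.44, with adjusted p between 0.0932 and 0.116 (limma). The most abundant keratins KRT8, KRT18 and KRT7 had log2 changes of -0.26, -0.45 and 0.04. Hairpin 1 and hairpin 7 alone gave -0.48 and -0.03 for KRT8, -0.63 and -0.27 for KRT18, and 0.77 and 0.36 for CLDN4. Summed FPKM of the list was 6984 and 7053 in scramble and 6197 and 7050 with hairpins 1 and 7. Most of that sum was KRT8 and KRT18, so it does not show the direction of the other genes. KRT8 was at 2031 and 2045 FPKM in scramble and 1459 and 1993 FPKM with hairpins 1 and 7. KRT18 was at 2092 and 2131 FPKM in scramble and 1368 and 1754 FPKM with hairpins 1 and 7. Of the 25 genes, 16 had a log2 change above 0 and 9 below.

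Of 9 squamous and basal genes 6 were tested, 3 fell and 0 rose (limma; 2 higher and 3 lower at an unadjusted p under 0.05). Those that fell were TP63, which is also on the list of lineage factors, and the keratin genes KRT5 and KRT6A. Over all genes tested, 1.45% rose and 1.11% fell, and 26.4% met the unadjusted threshold. KRT5 was at 22.96 and 23.71 FPKM in scramble and 3.14 and 2.67 FPKM under hairpins 1 and 7. KRT6A has near-identical copies, so its value is uncertain, and its log2 change was -2.63. SFN, the most abundant, had a log2 change of -0.13, with -0.38 by hairpin 1 alone and 0.11 by hairpin 7 alone. KRT15, a basal keratin, and TRIM29, both named after their values were seen, lay the other way, with log2 changes of 0.99 and 1.00 that did not pass (adjusted p = 0.0900 and 0.0544, limma). TRIM29 was at 2.35 and 1.83 FPKM in scramble and 5.12 and 5.16 FPKM under hairpins 1 and 7. KRT16, a keratin gene outside this list with near-identical copies, rose, with a log2 change of 2.00 (limma, adjusted p under 0.05). KRT16 met the filter only through its knockdown values. Of 9 mesenchymal genes 4 were tested and 0 passed (limma; 2 higher and 0 lower at an unadjusted p under 0.05). FN1, fibronectin, was at 850.25 and 902.83 FPKM in scramble, 2282.72 FPKM under hairpin 1 and 4059.03 FPKM under hairpin 7 (log2 change 1.80, limma, adjusted p = 0.0544), and it passed among protein-coding genes alone (0.0428) and among genes of at least 5 FPKM (0.0474). SNAI2 had a log2 change of 1.00, VIM of 0.71 and SNAI1 of -0.31. Hairpin 1 and hairpin 7 alone gave 0.50 and 1.51 for SNAI2, 1.60 and -0.18 for VIM, and 0.071 and -0.70 for SNAI1.

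**Figure D5:**
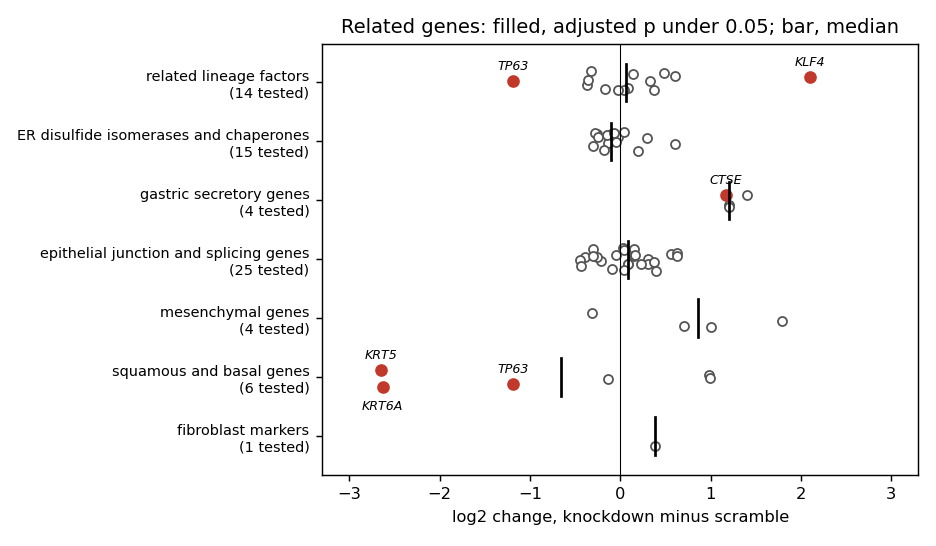
Log2 change of each tested gene in 7 lists, filled where the adjusted p was under 0.05 and with a bar at the median of the list. KLF4 and CTSE stand to the right and TP63, KRT5 and KRT6A to the left, while the 25 epithelial junction and splicing genes gather around 0.

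The genes most like AGR2 over the 4 libraries were found by the Euclidean distance between log2(FPKM + 1) profiles, each centred on its own mean. They were the keratin gene KRT16 (distance 0.27), which has near-identical copies, TP53I3 (0.27) and KLF4 (0.27). KRT16 was at 1.05 and 0.91 FPKM in scramble, 6.20 FPKM under hairpin 1 and 7.68 FPKM under hairpin 7. It met the filter only through its knockdown values. The gene nearest to FOXA1 was TRIML2 (0.13), and that nearest to FOXA2 was CYR61 (0.045). These likenesses, over 4 libraries and 11514 genes, are a description.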

How the data were processed

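The authors deposited 1 table of FPKM per gene, with 2 decimals, and the submitters' processing notes list STAR and RSEM, with no version. The genome build is not given in the sources used here, nor the annotation or filters. Of 344810 rows, 53777 had an Ensembl identifier and the rest stayed out (8.47% to 9.27% of the FPKM of a library). Genes whose mean reached 1 FPKM were tested by limma 3.58.1 (R 4.3.3) on log2(FPKM + 1) (eBayes with a mean trend, two-sided, Benjamini-Hochberg over 12834 genes, threshold 0.05, 2 residual and 2.87 prior degrees of freedom). The test was tried on simulated data. That scale understates changes of low genes. Fold values divide mean FPKM. RSEM splits reads between near-identical genes.

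The genes and 12 lists (141 entries, 1 without a row, 3 matched by an older symbol) were chosen with earlier results of these data known. Named were the 9 genes, NIPBL, list genes that passed, otherwise up to 4 with the smallest p, the 3 most abundant tested, and the nearest profiles. Others are marked. Chromosomes and exons are from GENCODE 29 and promoters from RefSeq. Alternatives covered the pseudocount, filter, scaling, variance trend, gene type, averaged scramble libraries and each library left out.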

Additional observations from a re-analysis of the deposited data

Results flagged for a closer look

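EHF, PDIA3, VIM, SNAI1 and SFN had 1 hairpin above both scramble libraries and the other below both, as did 2439 of the 12834 genes tested (19.0%). Hairpin 7 minus hairpin 1 on the log2(FPKM + 1) scale was -0.29 for EHF, 0.087 for PDIA3, -1.78 for VIM, -0.77 for SNAI1 and 0.49 for SFN. VIM was at 1.17 and 1.00 FPKM in scramble, 5.32 FPKM with hairpin 1 and 0.84 FPKM with hairpin 7. Each hairpin is 1 library, and the difference was not tested.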

How the results depend on the processing

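Of the alternatives that kept all 4 libraries apart, 2 ended calls of AGR2 or FOXA1. With no filter (rows listed at 0 in all libraries left out) limma called 1 gene of all (4275 at an unadjusted p under 0.05), 0 of the 9 genes (8 unadjusted) and 0 list genes (24 unadjusted). Without a mean trend it called 1 of the 9, AGR2. With the scramble libraries averaged it called 0 of all (975 unadjusted), 0 of the 9 (4 unadjusted) and 0 list genes (9 unadjusted). Leaving out each library gave 0 to 4532 of all genes, 0 to 6 of the 9 and 0 to 35 list genes, against 328, 2 and 5 in the fit reported. The 0 came without either scramble library, with 1060 and 1052 genes at an unadjusted p under 0.05. Signs turned for EHF and PDIA3 with quantile normalization (0.0022 and 0.025). Leaving out the library of hairpin 1 or that of hairpin 7 gave -0.17 and 0.12 for EHF, 0.015 and -0.071 for PDIA3, -0.18 and 1.60 for VIM, -0.70 and 0.071 for SNAI1 and 0.11 and -0.38 for SFN. The cause was not tested. Median scaling moved the median change of all genes from -0.013 to -0.026. Depth is unknown, so low values such as those of SOX2 have no counting error. No paired analysis was possible because the labels give the groups no shared replicate numbers.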

Other observations

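Genes near the 9 on the chromosome were read as well, by a window chosen after the data were seen. Within 500 kb of their starts (GENCODE 29) lay 24 other tested genes, of which 0 rose and 1 fell (limma, adjusted p under 0.05), with a median log2 change of -0.07. Among all genes tested, 1.45% rose and 1.11% fell. The neighbour that fell was THBD, thrombomodulin, which starts 464 kb from FOXA2. It was at 61.24 and 62.17 FPKM in scramble, 21.93 FPKM with hairpin 1 and 23.18 FPKM with hairpin 7 (log2 change -1.41 ± 0.09, SE, limma, adjusted p = 0.0114). The 4 tested neighbours of AGR2 did not pass: AHR had a log2 change of 0.20, TSPAN13 of 0.22, BZW2 of -0.33 and ANKMY2 of -0.06. MIPOL1, the only tested neighbour of FOXA1, had a log2 change of -0.20. Of 11 tested neighbours of ELF3, the LIM protein gene CSRP1 was nearest to the threshold, with a log2 change of 1.01 (limma, adjusted p = 0.0531).

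The antisense row GATA6-AS1 was at 0.09 and 0.66 FPKM in scramble and listed at 0 with both hairpins. SOX9-AS1 was at 0.26 and 0.30 FPKM in scramble and at 0.21 and 0.04 FPKM with hairpins 1 and 7.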
